A study of Mus musculus with 12 samples.

Results

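The 38 genes described here act in fatty acid desaturation, fatty acid synthesis and sterol synthesis in mouse bone marrow plasma cells. They were chosen by gene symbol, from the enzymes of these pathways, their sterol-sensing regulators, sterol exporters and enzymes of phosphatidylcholine synthesis, and were the listed genes present among the 14219 rows of the all-gene table. The list was drawn up with earlier results of these data known. RNA was sequenced from 4 groups of 3 libraries: plasma cells with surface human CD4 (marked) and without it (unmarked), sorted 270 days after tamoxifen, and marked and unmarked plasma cells sorted 60 days after tamoxifen. All 4 groups came from C57BL/6 mice of the genotype BLTcre.mcl1fl/+, in which tamoxifen starts a human CD4 reporter gene. Every group therefore came from mice with the mcl1fl allele, the Cre and the tamoxifen treatment. Whether that allele was in the same state in marked and unmarked cells was not tested. The labels name neither the driver of the Cre nor the sort gates or the age of the mice. Within a day, marked and unmarked libraries with the same number share a specimen number in the labels. The comparisons ask how the RNA of these genes differs between cells with and without the mark and between the 2 times after tamoxifen.

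Plasma cells secrete antibody through a large endoplasmic reticulum, and the membranes of that organelle are built from phospholipids and sterols. Acetyl-CoA is used along separate routes for fatty acids and for cholesterol. Saturated fatty acids are elongated and then given double bonds by desaturases. Both routes are controlled by the SREBP transcription factors, which are held in the endoplasmic reticulum by INSIG proteins and escorted to the Golgi by SCAP when sterols are low, whereas sterol export is controlled by the LXR receptors.

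The libraries held 7449468 to 15943543 reads over the rows of the table, and 38 of 38 genes passed the filter on low counts, which kept 12704 of 14219 genes. Levels are given in CPM (reads of the gene scaled to a common library total), in the order of libraries 1, 2 and 3. The defining plasma cell transcripts were abundant in all 12 libraries, with summed levels of 8 markers from 89990 to 219796 CPM in day 270 marked, 177904 to 230908 in day 270 unmarked, 214057 to 325847 in day 60 marked and 229653 to 258868 in day 60 unmarked libraries. Jchain alone made up most of these sums, with 7.9% to 31.3% of a library's reads, and the main fit did not rescale CPM for that share. The lowest of the 8, Prdm1, averaged 200, 255, 155 and 200 CPM in the same order of groups. Day 270 marked libraries 2 and 3 stood apart, with 11022 and 11301 genes that had a read, the fewest of the 12, and library 2 gave 16.1% of its reads to the ribosomal RNA gene Rn18s-rs5. Results are therefore also given without these 2 libraries where they change. In bulk RNA, fewer cells of a type and less RNA per cell cannot be told apart. Nothing in the labels says whether libraries 1, 2 and 3 came from separate mice, so p-values measure the spread between these samples.

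Mean levels over the 12 libraries ranged from 0.568 CPM for Elovl6, an elongase of saturated fatty acids, to 233.7 CPM for Scd2. Of the 38 genes, 15 averaged over 50 CPM and 3 averaged under 2 CPM. Per kilobase of exon, Ebp (a sterol isomerase) at 43.6 CPM per kb and Scd2 at 42.8 CPM per kb had the highest levels, followed by the elongase Elovl5 at 35.1 CPM per kb, the regulator Srebf2 at 24.3 CPM per kb and the sterol sensor Insig1 at 22.0 CPM per kb. Scd1 stood at 9.77 CPM per kb, rank 13 of 38. The lowest were Acaca (acetyl-CoA carboxylase) at 0.275, Fdps (farnesyl diphosphate synthase) at 0.274, Idi1 (isopentenyl diphosphate isomerase) at 0.232 and Elovl6 at 0.0883 CPM per kb. Elovl6 had 84 reads over the 12 libraries and none in 7 of them. Transcripts of other genes matched at least 95% of the bases over 76.8% of the Fdps transcript and 64.3% of the Acaca transcript, so the counts of these genes are uncertain.

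**Figure D1:**
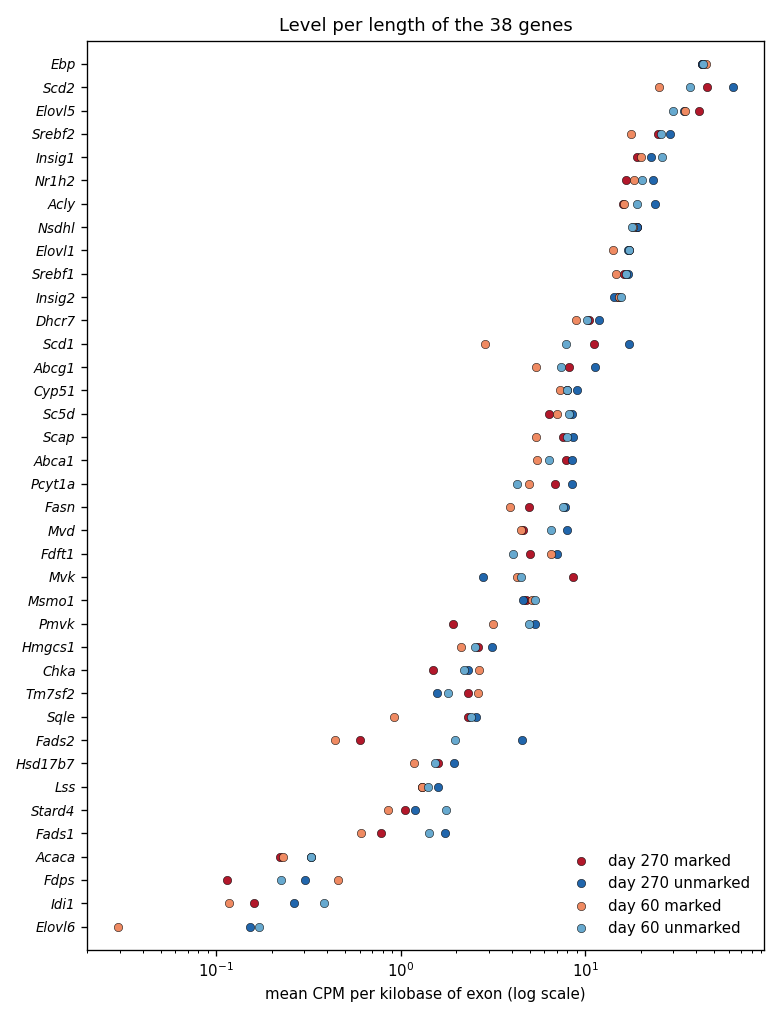
Mean level of each of the 38 genes in CPM per kilobase of exon (log axis), 1 point per group, genes ordered by that level over the 12 libraries. Ebp and Scd2 sit at the high end and Elovl6 at the low end, and the day 270 marked point of Elovl6 is missing because its libraries had no reads.

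Most of the 38 genes did not pass the test in any comparison. In limma's test with Benjamini-Hochberg adjustment over the 12704 genes, 3 of 38 genes were called lower in marked than in unmarked cells when both days were averaged (Scd1, Fads2 and Fasn), and 0 were called higher. The background of that comparison was 1.84% of genes called in either direction, 1.5% lower and 0.338% higher. For day 270 minus day 60, both populations averaged, 2 of 38 were called higher (Scd1 and Scd2) and 0 lower, against a background of 0.189% called, 0.181% higher and 0.00787% lower. Within marked cells alone, 1 gene was called higher at day 270 (Scd1), where 0.0315% of all genes were called and 0.0236% were called higher. Each of these 4 genes makes or desaturates fatty acids, and no gene of cholesterol synthesis was called in any of the 8 comparisons by limma with all 12 libraries.

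Single-day and single-population comparisons gave fewer calls. Because the 38 genes were listed with earlier results of these data known, their shares beside all genes describe the list and do not test it. At day 270, 0 of 38 were called between marked and unmarked cells (background 0.48%, 0.0472% higher and 0.433% lower), 8 (21.1%) had an unadjusted p below 0.05 (1 higher, 7 lower) beside 14% of all genes. DESeq2 called 1 (2.63%, beside 2.02% of all genes), edgeR 0 and limma-voom 0. At day 60, 0 of 38 were called (background 0.189%, 0.0394% higher and 0.15% lower), 8 (21.1%) had an unadjusted p below 0.05, all lower in marked cells, beside 6.45% of all genes. DESeq2 called 2 (5.26%, beside 0.937% of all genes), edgeR 0 and limma-voom 0. Between days within unmarked cells, 0 of 38 were called (background 0%), 5 (13.2%) had an unadjusted p below 0.05, all higher at day 270, beside 2.98% of all genes, and edgeR, DESeq2 and limma-voom called 0. The median log2 difference of the 38 genes, marked minus unmarked, was -0.36 at day 270 and -0.3 at day 60, beside -0.22 and -0.13 over all genes tested. With TMM scaling the medians of the 38 genes were -0.24 and -0.17, beside -0.1 and -0.01 over all genes. Averaged over both days, the median was -0.37 for the 38 genes and -0.18 for all genes. For day 270 minus day 60, both populations averaged, the median was 0.07 for the 38 genes and 0.07 for all genes.

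Groups that did not overlap were counted as well, with the same limit on the shares. At day 270, 8 of 38 genes (21.1%) had every marked library below every unmarked one (background 12%), and 1 gene (2.63%, Mvk) had every marked library above (background 3.28%). At day 60, 9 of 38 (23.7%) were below (background 11.3%), and 1 (2.63%, Pcyt1a) above (background 4.46%). Between days, 4 of 38 (10.5%) had every marked library of day 270 above every one of day 60 (background 6.46%) and 0 below (background 4.04%). In unmarked cells 7 of 38 (18.4%) were above (background 10.4%) and 1 (2.63%, Mvk) below (background 2.39%). In specimen pairs, 5 of 38 genes (13.2%) were lower in the marked library in 6 of 6 pairs, namely Scd1, Scd2, Fads1, Fads2 and Srebf2, beside 7.64% of all genes tested.

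The desaturases held 3 of the 4 called genes. Scd1 and Scd2 are stearoyl-CoA desaturases, which put the first double bond into saturated fatty acids and so make oleate and palmitoleate. Fads1 and Fads2 add further double bonds to polyunsaturated fatty acids. All 4 had negative log2 differences between marked and unmarked cells and positive ones between day 270 and day 60, with medians over the 4 of -1.06 and 0.8 in the averaged comparisons, beside -0.18 and 0.07 over all genes.

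Scd1 (ENSMUSG00000037071, GRCm38 chr19:44394455-44407879, minus strand) was lower in marked cells on both days and higher at day 270 in both populations. It stood at 57.6, 43.0 and 63.1 CPM in day 270 marked and 84.1, 83.5 and 84.8 CPM in day 270 unmarked libraries. At day 60 it stood at 19.8, 12.3 and 9.83 CPM in marked and 62.9, 26.4 and 26.3 CPM in unmarked libraries. None of the 4 pairs of groups compared within a day or within a population overlapped. Group means were 54.6 ± 10.4, 84.1 ± 0.621, 14.0 ± 5.21 and 38.5 ± 21.1 CPM (SD, n = 3 each) in day 270 marked, day 270 unmarked, day 60 marked and day 60 unmarked cells, so the day 270 mean was 3.91 times the day 60 mean in marked cells and 2.18 times in unmarked cells. In the day 60 unmarked group, library 1 was the highest by far.

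Marked and unmarked libraries of a day shared specimens, which no between-day fit took into account. P-values for day averaged over both populations therefore treat libraries of the same specimen as separate samples. The log2 difference of Scd1 for day 270 minus day 60, both populations averaged, was 1.61 ± 0.23 (SE; limma, adjusted p = 0.00667), the smallest adjusted p of any of the 38 genes in any comparison. It was called in 23 of 23 alternative settings, from 1.41 to 1.81, although using only the libraries compared repeats the main fit here. Without day 270 marked libraries 2 and 3 it was 1.66 (limma, adjusted p = 0.0417). Within marked cells the difference was 1.97 ± 0.32 (limma, adjusted p = 0.0314). That call was lost in 13 of 23 settings: without day 60 marked library 2 or 3 (limma, adjusted p = 0.251 and 0.2), day 60 unmarked library 2 or 3 (0.0573 and 0.0564), day 270 marked library 3 (0.175) or day 270 unmarked library 1, 2 or 3 (0.0761, 0.0792 and 0.0879), without day 270 marked libraries 2 and 3 together (0.488), with limma-voom (0.127), edgeR (0.133) or a pseudocount of 0.1 (0.0559), and in a fit of the marked libraries alone (0.928). Within unmarked cells the difference was 1.24 ± 0.32 and not called (limma, adjusted p = 0.654).

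Between marked and unmarked cells, both days averaged, the Scd1 difference was -1.0 ± 0.23 (limma, adjusted p = 0.0286), and marked was lower in 6 of 6 specimen pairs. The call was lost without day 60 marked library 2 or 3 (limma, adjusted p = 0.0776 and 0.0639), day 60 unmarked library 1 (0.0849), day 270 unmarked library 1, 2 or 3 (0.0889, 0.0833 and 0.0708) or day 270 marked libraries 2 and 3 together (0.0876), and with edgeR (0.0638). At day 270 the difference was -0.64 ± 0.32 (limma, adjusted p = 0.387). At day 60 it was -1.36 ± 0.32 (limma, adjusted p = 0.148), and this was called with the specimen pairing in the fit (limma, adjusted p = 0.0338), with DESeq2 (adjusted p = 0.027) and without day 270 marked libraries 2 and 3 (limma, adjusted p = 0.0464). The 2 days' differences were not shown to differ (interaction 0.72 ± 0.46, limma, adjusted p = 1). The authors' deposited table gives Scd1 a log2 difference of -1.26 at day 60, with an FDR of 0.29.

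Scd2 (ENSMUSG00000025203, chr19:44293674-44306864, plus strand), the other stearoyl-CoA desaturase, followed the same order of groups at a higher level. It stood at 190.0, 249.95 and 311 CPM in day 270 marked and 317, 384 and 337 CPM in day 270 unmarked libraries. The day 60 levels were 133, 114 and 166 CPM in marked and 226, 184 and 192 CPM in unmarked libraries. As for Scd1, no pair of groups within a day or a population overlapped, though the gap at day 270 was narrow, 311 CPM in marked library 3 and 317 CPM in unmarked library 1. The day 270 mean was 1.82 times the day 60 mean in marked cells and 1.72 times in unmarked cells, and marked means were 0.723 of unmarked ones at day 270 and 0.684 at day 60.

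As for Scd1, the between-day fit did not take the shared specimens into account. For day 270 minus day 60, both populations averaged, Scd2 rose by 0.82 ± 0.14 on the log2 scale (limma, adjusted p = 0.0153), a call held in 18 of 23 settings. It was lost without day 60 marked library 2 (limma, adjusted p = 0.0827), day 60 unmarked library 2 or 3 (0.0783 and 0.0776), day 270 unmarked library 2 (0.0904) or day 270 marked libraries 2 and 3 together (0.118). Between marked and unmarked cells, both days averaged, the difference was -0.52 ± 0.14 (limma, adjusted p = 0.0543), which missed the threshold, with marked lower in 6 of 6 pairs. It was called lower with limma-voom, with a pseudocount of 2, without day 60 marked library 3, without day 270 marked library 2 or 3, and without day 270 marked libraries 2 and 3 together. A near-identical transcript of 1 other gene covered 11.4% of the Scd2 transcript, and none was found for Scd1, Fads1 or Fads2.

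Fads2 (ENSMUSG00000024665, chr19:10062765-10101746, minus strand), which desaturates the essential polyunsaturated fatty acids, was low throughout and lower in marked cells. It stood at 4.45, 1.48 and 0 CPM in day 270 marked and 12.1, 15.2 and 17.6 CPM in day 270 unmarked libraries. At day 60 it stood at 2.83, 0 and 1.52 CPM in marked and 11.4, 6.01 and 1.996 CPM in unmarked libraries. The groups were apart at day 270 and overlapped at day 60. A count of 0 allows up to 0.325 CPM in day 270 marked library 3 and up to 0.357 CPM in day 60 marked library 2 (3 reads of the library's total, counting error only). Averaged over both days, Fads2 was lower in marked cells by a log2 difference of -2.56 ± 0.59 (limma, adjusted p = 0.0306), in 6 of 6 pairs. The call held in 12 of 23 settings. It was lost without day 60 marked library 2 (limma, adjusted p = 0.0936), day 60 unmarked library 1 or 2 (0.105 and 0.0855), day 270 unmarked library 1, 2 or 3 (0.0826, 0.0894 and 0.0785) or day 270 marked libraries 2 and 3 (0.132), with limma-voom (0.0801), edgeR (0.164), a pseudocount of 0.1 (0.093) or a minimum mean of 5 CPM (0.0506). Its difference at day 270 alone was -3.17 ± 0.84 (limma, adjusted p = 0.102). That difference was called without day 270 marked library 1 (-3.94, limma, adjusted p = 0.0213) and with a pseudocount of 2 (-2.24, 0.0379), and was -1.63 without day 270 marked libraries 2 and 3 (0.718).

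Fads1 (ENSMUSG00000010663, chr19:10182888-10196877), the partner desaturase in the same gene cluster, stood at 2.26, 2.82 and 6.17 CPM in day 270 marked and 6.35, 12.6 and 6.18 CPM in day 270 unmarked libraries. The day 60 levels were 2.43, 2.50 and 3.84 CPM in marked and 6.58, 7.04 and 7.09 CPM in unmarked libraries. Marked libraries lay below unmarked ones on both days, narrowly at day 270 (6.17 CPM in marked library 3 and 6.18 CPM in unmarked library 3), and in 6 of 6 pairs. The averaged difference was -1.12 ± 0.37 and was not called (limma, adjusted p = 0.145).

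Among the genes of fatty acid synthesis and elongation, Fasn was called and the other 5 were not. Fasn (fatty acid synthase, which assembles palmitate; ENSMUSG00000025153, chr11:120805846-120824547, minus strand) stood at 61.3, 36.5 and 64.4 CPM in day 270 marked and 81.6, 108 and 64.4 CPM in day 270 unmarked libraries. At day 60 it stood at 29.0, 35.3 and 63.55 CPM in marked and 72.7, 85.3 and 89.3 CPM in unmarked libraries. The groups were apart at day 60 and met at day 270, where library 3 of both populations had the same level to 3 digits. The averaged difference, marked minus unmarked, was -0.84 ± 0.2 (limma, adjusted p = 0.0415), and it held in 12 of 23 settings. It was lost without day 60 marked library 1 or 2 (limma, adjusted p = 0.115 and 0.12), day 60 unmarked library 1, 2 or 3 (0.0808, 0.105 and 0.119), day 270 marked library 2 (0.0509), day 270 unmarked library 1 or 2 (0.109 and 0.143) or day 270 marked libraries 2 and 3 (0.115), with a pseudocount of 0.1 (0.0563), and with the specimen pairing in the fit (0.0556). Marked means were 0.639 of unmarked ones at day 270 and 0.517 at day 60. Between days, both populations averaged, Fasn differed by 0.19 ± 0.2 (limma, adjusted p = 0.854). The authors' deposited table gives it a log2 difference of -0.879 at day 60 with an FDR of 0.159.

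Elovl5, which elongates polyunsaturated fatty acids, was among the 4 genes of the list with the largest mean CPM. It stood at 158, 98.9 and 181 CPM in day 270 marked, 133, 107 and 123 CPM in day 270 unmarked, 120.3, 112 and 135 CPM in day 60 marked and 98.7, 105 and 113 CPM in day 60 unmarked libraries. Marked means exceeded unmarked ones on both days, the opposite sign to Fasn and the desaturases, but the averaged difference of 0.22 ± 0.14 was not called (limma, adjusted p = 0.465), although DESeq2 called Elovl5 higher in marked cells. Acly, which supplies cytosolic acetyl-CoA, averaged 85.2 ± 24.1 CPM in day 270 marked, 127 ± 23.4 in day 270 unmarked, 85.9 ± 31.9 in day 60 marked and 102 ± 7.89 in day 60 unmarked cells (SD, n = 3 each). At day 270 its difference between marked and unmarked cells was -0.59 ± 0.26 (limma, adjusted p = 0.325). Averaged over both days, Acaca at -0.43 ± 0.42, Elovl1 at -0.15 ± 0.18 and Elovl6 at -1.07 ± 0.56 were not called either.

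Promoter windows are shown for the called genes that have one in the RefSeq table (Fasn and Fads2), and for Pcyt1a, which holds an SREBP-type element. Windows, from the build GRCm38.p6, run from 250 bases before the start to 50 after it, 5′ to 3′ on the gene's strand, with capitals for CCAAT or its reverse complement ATTGG in Fasn and for the element TCACNCCAC in Pcyt1a. The window of Fasn is chr11:120824498-120824797, that of Fads2 is chr19:10101454-10101753 (both minus strand), and that of Pcyt1a is chr16:32430671-32430970 (plus strand).
Fasn: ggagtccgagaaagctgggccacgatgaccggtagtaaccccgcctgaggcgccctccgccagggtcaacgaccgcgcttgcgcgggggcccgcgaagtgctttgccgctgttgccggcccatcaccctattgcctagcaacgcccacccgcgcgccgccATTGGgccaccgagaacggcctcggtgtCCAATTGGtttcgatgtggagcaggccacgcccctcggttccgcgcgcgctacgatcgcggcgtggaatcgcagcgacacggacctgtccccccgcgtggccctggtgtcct
Fads2: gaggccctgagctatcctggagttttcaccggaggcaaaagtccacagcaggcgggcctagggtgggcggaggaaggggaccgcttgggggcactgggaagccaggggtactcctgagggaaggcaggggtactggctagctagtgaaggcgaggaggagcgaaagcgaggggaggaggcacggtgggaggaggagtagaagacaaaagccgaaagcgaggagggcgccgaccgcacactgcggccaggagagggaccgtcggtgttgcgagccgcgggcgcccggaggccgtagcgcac
Pcyt1a: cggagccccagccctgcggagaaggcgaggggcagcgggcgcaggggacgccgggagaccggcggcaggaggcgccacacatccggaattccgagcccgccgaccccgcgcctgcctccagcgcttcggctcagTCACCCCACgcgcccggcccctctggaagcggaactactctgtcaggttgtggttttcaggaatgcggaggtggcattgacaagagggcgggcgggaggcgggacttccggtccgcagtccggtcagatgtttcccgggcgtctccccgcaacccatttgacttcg
Windows were found for 30 of the 38 genes and not for Abcg1, Fads1, Fdft1, Fdps, Scd1, Scd2, Sqle and Stard4. Both strands were searched for TCACNCCAC, CCAAT and CACGTG. TCACNCCAC was in 2 of 30 genes (6.67%, Hmgcs1 and Pcyt1a) and in 1.44% of the 27025 genes with windows. CCAAT was in 23 of 30 (76.7%) and in 41.1% of all, and CACGTG was in 7 of 30 (23.3%) and in 8.09% of all. Fasn held CCAAT 62 bases before the start, and on the other strand 59 and 90 bases before it, where the matches at 62 and 59 share bases. Fads2 held none of the 3 motifs. A match describes the letters of the window and is not a measured binding site.

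None of the 5 SREBP regulators was called, and their median averaged difference, marked minus unmarked, was -0.33, beside -0.18 over all genes. Srebf2, the transcription factor that chiefly drives cholesterol genes, stood at 176, 161 and 198 CPM in day 270 marked, 208, 204 and 209.5 CPM in day 270 unmarked, 102, 106 and 171 CPM in day 60 marked and 192, 175 and 191 CPM in day 60 unmarked libraries. Marked libraries lay below unmarked ones on both days. The averaged difference was -0.41 ± 0.13 (limma, adjusted p = 0.135), and it was called without day 60 marked library 3. Insig1, which retains SCAP in the endoplasmic reticulum, stood at 77.3, 41.6 and 58.9 CPM in day 270 marked and 82.2, 68.5 and 58.7 CPM in day 270 unmarked libraries, which overlapped. The day 60 levels were 62.5, 50.6 and 73.1 CPM in marked and 82.5, 84.1 and 76.2 CPM in unmarked libraries, which did not overlap. Its averaged difference was -0.33 ± 0.16 (limma, adjusted p = 0.318). Srebf1, the factor of fatty acid genes such as Fasn and Scd1, averaged 91.8 ± 34.0 CPM in day 270 marked, 95.7 ± 29.6 in day 270 unmarked, 82.0 ± 18.1 in day 60 marked and 93.9 ± 15.9 in day 60 unmarked cells (SD, n = 3 each), with differences of -0.14 ± 0.19 for marking and 0.06 ± 0.19 for day. The RNA of Srebf1 was not shown to differ where that of Scd1 was called. The escort Scap had a difference of -0.36 ± 0.17 (limma, adjusted p = 0.279) and Insig2 one of 0 ± 0.16.

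In the mevalonate and isoprenoid steps, which lead from acetyl-CoA to farnesyl diphosphate, no gene was called by limma with all 12 libraries and the values of single libraries spread widely. Mvk (mevalonate kinase) stood at 8.66, 19.6 and 40.9 CPM in day 270 marked and 7.83, 6.35 and 8.27 CPM in day 270 unmarked libraries. At day 60 it stood at 11.8, 7.26 and 15.3 CPM in marked and 11.8, 11.2 and 13.1 CPM in unmarked libraries. Its high values were in day 270 marked libraries 2 and 3, and the difference at day 270, 1.31 ± 0.48 (limma, adjusted p = 0.237), was 0.21 without those 2 libraries. It was called with DESeq2 (adjusted p = 0.0195) and without day 270 marked library 1 (1.86, limma, adjusted p = 0.028).

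Pmvk, the next kinase of the route, went the other way at day 270. It stood at 6.21, 3.62 and 0 CPM in day 270 marked, 9.21, 11.5 and 6.85 CPM in day 270 unmarked, 7.60, 6.19 and 2.41 CPM in day 60 marked and 6.41, 8.33 and 10.7 CPM in day 60 unmarked libraries. The day 270 difference of -1.99 ± 0.75 was not called (limma, adjusted p = 0.255) and was -0.5 without day 270 marked libraries 2 and 3. Fdps stood at 1.44, 0 and 0 CPM in day 270 marked, 2.02, 1.73 and 0.074 CPM in day 270 unmarked, 1.21, 2.38 and 2.15 CPM in day 60 marked and 0.439, 1.63 and 0.757 CPM in day 60 unmarked libraries. These levels rest on few reads, and its differences of 0.79 between marked and unmarked cells at day 60 and -1.58 ± 0.74 between days in marked cells were not called. Hmgcs1 (the synthase that opens the route) and Mvd (the decarboxylase) each had a library at 0 in the day 270 marked group, library 2, with 15.7 and 20.2 CPM of Hmgcs1 and 7.65 and 18.0 CPM of Mvd in libraries 1 and 3.

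The 11 genes of the squalene and sterol steps gave no call by limma in any comparison, with averaged medians of -0.19 for marked minus unmarked and 0.09 for day 270 minus day 60, beside -0.18 and 0.07 over all genes. Ebp stood at 109, 79.7 and 109 CPM in day 270 marked, 94.6, 111 and 92.5 CPM in day 270 unmarked, 103, 94.6 and 115 CPM in day 60 marked and 96.2, 111 and 94.7 CPM in day 60 unmarked libraries. All 4 groups overlapped, and its averaged differences were 0.02 ± 0.13 for marking and -0.05 ± 0.13 for day. Fdft1 (squalene synthase) stood at 24.1, 18.8 and 20.3 CPM in day 270 marked, 23.6, 30.7 and 34.6 CPM in day 270 unmarked, 16.5, 35.2 and 31.1 CPM in day 60 marked and 18.8, 17.9 and 14.7 CPM in day 60 unmarked libraries. Its difference between marked and unmarked cells was 0.61 ± 0.31 at day 60 (limma, adjusted p = 0.837). It shares 774 exon bases (18.3%) with Ctsb on the opposite strand, and with no strand setting stated the reads of the 2 genes may not be told apart. A near-identical transcript of 1 other gene also covered 33.7% of the Fdft1 transcript, so its counts are uncertain.

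Sqle (squalene epoxidase, a rate-controlling oxygen-using step) averaged 12.9 ± 3.67 CPM in day 270 marked, 14.1 ± 4.15 in day 270 unmarked, 5.09 ± 1.32 in day 60 marked and 13.2 ± 5.98 in day 60 unmarked cells (SD, n = 3 each). The day 60 marked group had the lowest mean, with a difference from unmarked of -1.21 ± 0.46 (limma, adjusted p = 0.599). The 2 groups overlapped there, at 6.435 CPM in marked library 3 and 6.4 CPM in unmarked library 3. Day 270 minus day 60 in marked cells was 1.25 ± 0.46 (limma, adjusted p = 0.404). The averaged marking differences of the other genes lay between -0.47 for Hsd17b7 and 0.29 for Tm7sf2, each with an SE of at least 0.15. Nsdhl (0.01 ± 0.15), Msmo1 (-0.05 ± 0.24), Dhcr7 (-0.19 ± 0.16), Cyp51 (-0.22 ± 0.24), Lss (-0.22 ± 0.28) and Sc5d (-0.4 ± 0.26) fell within that range, and none was called.

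Among the sterol transport and LXR genes, Abcg1 and Abca1, exporters that LXR receptors switch on when sterols are plentiful, had higher means at day 270. Abcg1 averaged 59.4 ± 21.4 CPM in day 270 marked, 82.8 ± 15.9 in day 270 unmarked, 39.3 ± 5.11 in day 60 marked and 54.0 ± 6.38 in day 60 unmarked cells (SD, n = 3 each). Its differences of 0.57 ± 0.18 for day (limma, adjusted p = 0.277) and -0.49 ± 0.18 for marking (limma, adjusted p = 0.182) were not called, but the day difference was called without day 270 marked library 2. Abca1 averaged 81.7 ± 17.1, 87.9 ± 29.4, 57.1 ± 27.7 and 66.2 ± 16.6 CPM in the same order of groups, with a day difference of 0.49 (limma, adjusted p = 0.558). Macrophages also express both exporters. The 12 macrophage markers were all positive for day 270 minus day 60 with both populations averaged, and 11 were positive within unmarked cells. The summed level of these markers was 347.1 to 841.1 CPM in day 270 marked, 201.2 to 415.6 in day 270 unmarked, 173.4 to 295.3 in day 60 marked and 107.6 to 347.0 in day 60 unmarked libraries. Their part in the day differences, those of Scd1 and Scd2 included, was not tested. For the averaged marking differences, Nr1h2, an LXR receptor, stood at -0.37 ± 0.2 and Stard4, a cytosolic sterol carrier, at -0.61 ± 0.44.

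Pcyt1a, the enzyme that sets the pace of phosphatidylcholine synthesis, was higher at day 270 in every library of both populations. It stood at 44.7, 55.0 and 53.0 CPM in day 270 marked, 56.9, 75.9 and 56.5 CPM in day 270 unmarked, 35.2, 36.8 and 37.99 CPM in day 60 marked and 31.7, 34.0 and 29.1 CPM in day 60 unmarked libraries. The day 270 mean was 1.39 times the day 60 mean in marked cells and 2.0 times in unmarked cells. Averaged, the day difference of 0.72 ± 0.15 missed the threshold (limma, adjusted p = 0.06). It was called with DESeq2, with a pseudocount of 2, and without day 270 marked library 1 or 2. Within unmarked cells it was 0.98 ± 0.21 (limma, adjusted p = 0.31). Chka, the choline kinase of the same route, stood at 24.1, 21.9 and 7.68 CPM in day 270 marked, 25.3, 31.9 and 26.0 CPM in day 270 unmarked, 24.0, 36.0 and 36.4 CPM in day 60 marked and 24.5, 32.6 and 22.6 CPM in day 60 unmarked libraries. Day 270 marked library 3 was the low one. The day difference in marked cells was -0.96 ± 0.37 (limma, adjusted p = 0.414) and was -0.38 without day 270 marked libraries 2 and 3.

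**Figure D2:**
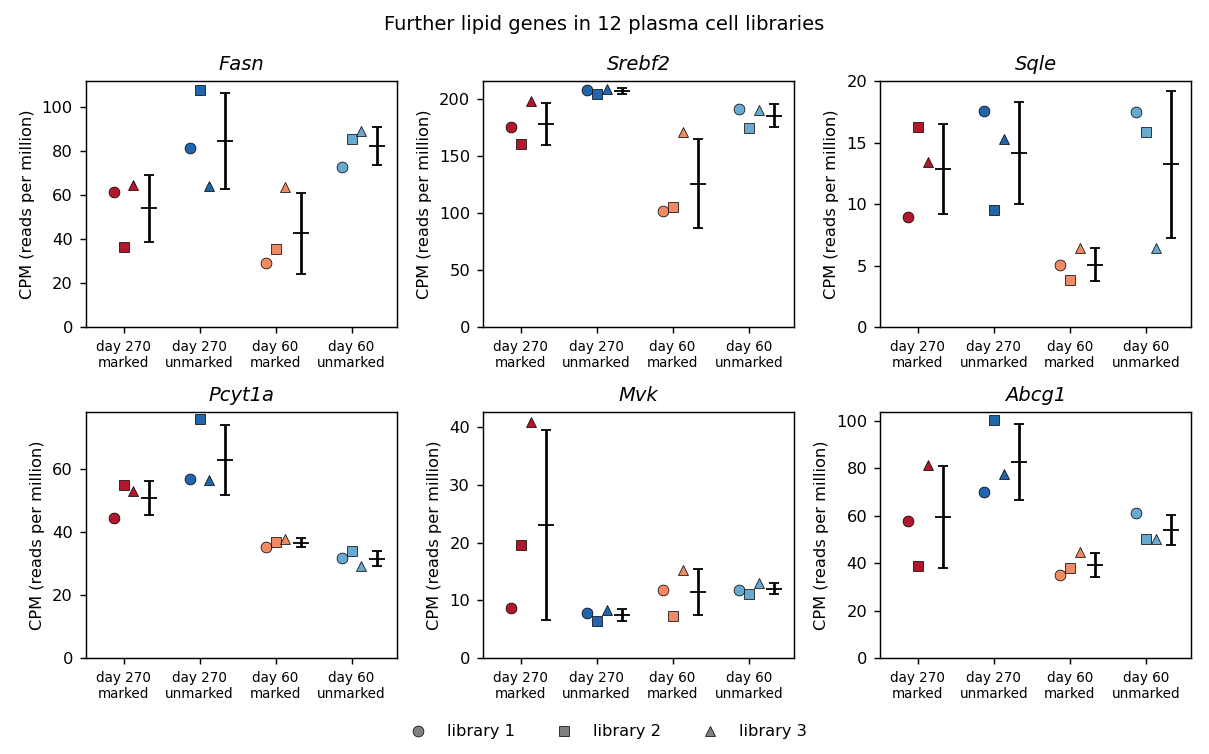
Levels in CPM (vertical axes start at 0) of further lipid genes, 1 point per library and the mean with SD for each of the 4 groups. Fasn lies lower in both marked groups than in the unmarked ones (means 54.1 and 42.6 CPM in marked, 84.5 and 82.4 CPM in unmarked cells), and Pcyt1a lies higher in both day 270 groups.

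Whether the marking difference changed between days was tested directly, and 0 of 38 genes were called (background 0%). Unadjusted p was below 0.05 for 2 genes (5.26%, beside 3.05% of all genes), Fdft1 (-1.08 ± 0.44) and Mvk (1.43 ± 0.67), both with an adjusted p of 1 in limma, and edgeR, DESeq2 and limma-voom called 0. The comparison of day 270 marked with day 60 unmarked cells, in which marking and day differ together, called 0 of 38 (background 1.54%). In it 5 genes (13.2%) had an unadjusted p below 0.05, 1 higher and 4 lower, beside 14.4% of all genes. DESeq2 called 1 (Pcyt1a, 2.63%, beside 4.51% of all genes), edgeR 0 and limma-voom 0. The difference of Pcyt1a was 0.68 ± 0.21 (limma, adjusted p = 0.135), and the authors' deposited table of 265 genes for this comparison lists none of the 38.

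**Figure D3:**
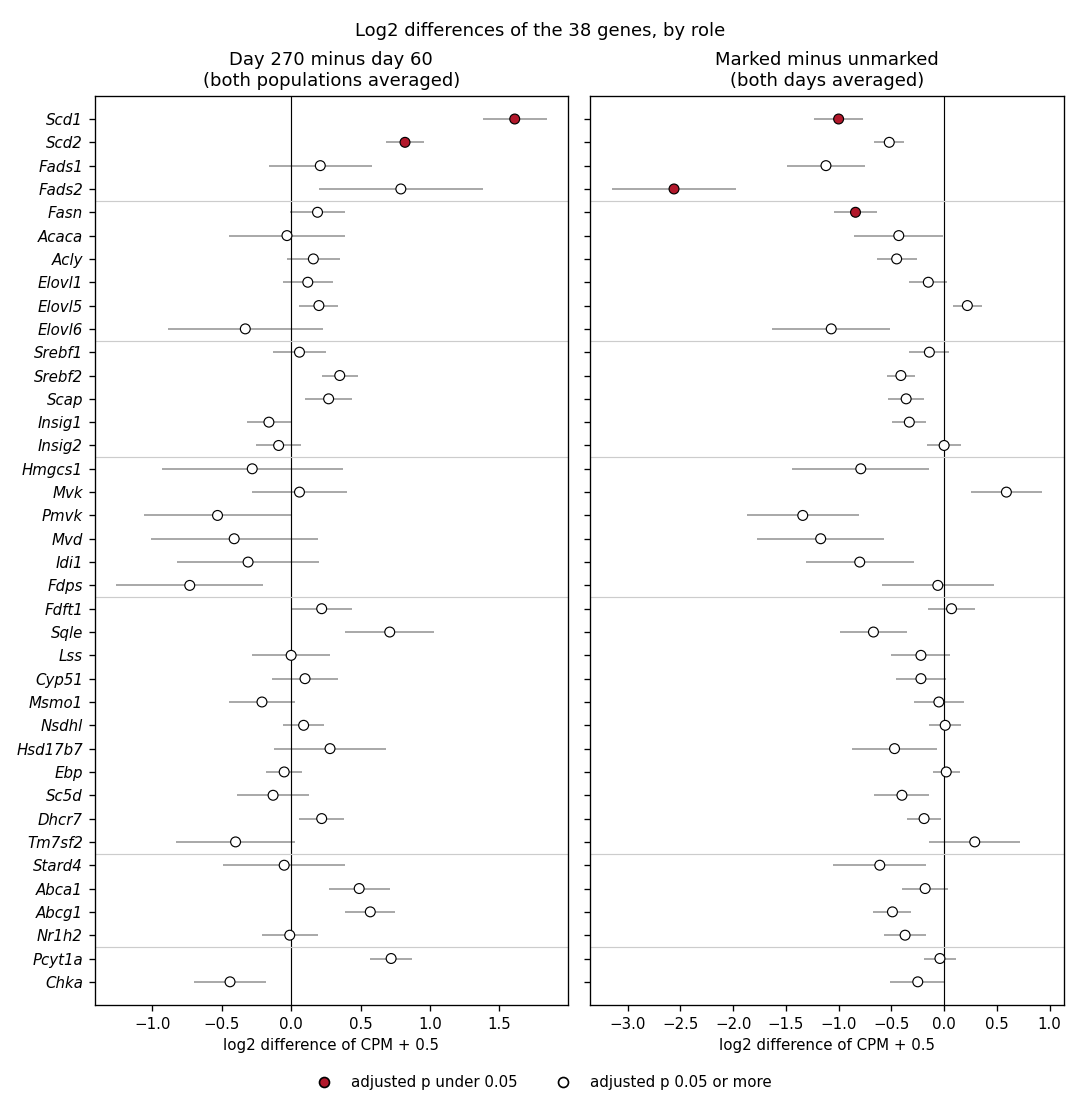
Log2 differences of the 38 genes with their standard errors, marked minus unmarked averaged over days and day 270 minus day 60 averaged over populations, on the log2(CPM + 0.5) scale, filled points for called genes. Scd1 lies at 1.61 for day and -1.0 for marking, and none of the 11 squalene and sterol genes is filled.

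Marked and unmarked cells also differed in other transcripts beside these results. The 10 genes of dividing cells summed to 51.4 to 78.3 CPM in day 270 marked and 138.6 to 178.0 in day 270 unmarked libraries, and to 23.1 to 47.2 in day 60 marked and 162.4 to 204.1 in day 60 unmarked libraries. The 8 B cell markers summed to 1174 to 1466 CPM in day 270 marked, 2003 to 2106 in day 270 unmarked, 1322 to 1439 in day 60 marked and 1783 to 2092 in day 60 unmarked libraries. Called lower in marked cells, both days averaged, were 8 of the 10 and 2 of the 8. The 8 erythroid markers went the other way, with 4 called higher in marked cells (Hba-a1, Hba-a2, Hbb-bs and Hbb-bt) and sums of 184.6 to 801.5 CPM in day 270 marked, 30.2 to 168.6 in day 270 unmarked, 107.4 to 350.5 in day 60 marked and 38.9 to 69.0 in day 60 unmarked libraries. Of the neutrophil markers 7 of 8 and of the macrophage markers 10 of 12 had positive marking differences, with 0 called in either list. Neutrophil sums were 75.5 to 513.9 CPM in day 270 marked, 37.5 to 206.4 in day 270 unmarked, 1.29 to 774.7 in day 60 marked and 21.7 to 285.7 in day 60 unmarked libraries. The part of these cell types in the differences of Scd1, Fads2 and Fasn was not tested. Adipocyte and stromal markers summed to 6.85 to 19.7 CPM in day 270 marked, 2.39 to 6.26 in day 270 unmarked, 4.53 to 6.88 in day 60 marked and 4.34 to 8.67 in day 60 unmarked libraries, with 4 of 8 markers in the table, and their part was not tested either. Mcl1, the gene of the mcl1fl allele, averaged 438 ± 66.7 CPM in day 270 marked and 555 ± 31.7 in day 270 unmarked cells. At day 60 Mcl1 averaged 414 ± 85.6 CPM in marked and 520 ± 32.2 in unmarked cells (SD, n = 3 each). The part of Mcl1 in the marking differences was not tested. Library numbers in the labels put libraries 1 of all 4 groups in one run of numbers, unmarked libraries 2 and 3 in another and marked libraries 2 and 3 in another, so among libraries 2 and 3 marking and library number cannot be told apart. Within libraries 1 alone, Scd1 stood at 57.6 CPM in day 270 marked, 84.1 in day 270 unmarked, 19.8 in day 60 marked and 62.9 in day 60 unmarked cells. In the same order Fads2 stood at 4.45, 12.1, 2.83 and 11.4 CPM and Fasn at 61.3, 81.6, 29.0 and 72.7 CPM. Each of these values is a single library. Day 60 unmarked library 1 was the highest of its group for Scd1 and Fads2 and the lowest for Fasn.

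Beyond the 38 genes, 131 related genes were listed in fatty acid synthesis, cholesterol synthesis, sterol regulation and transport, phospholipid synthesis and fatty acid oxidation, and 116 were in the table. Not all of these passed the filter on low counts. Only 1 was called in any of the 8 comparisons. Me1, malic enzyme, which makes NADPH that fatty acid synthesis uses, averaged 9.04 ± 2.73 CPM in day 270 marked, 3.18 ± 1.03 in day 270 unmarked, 3.03 ± 1.53 in day 60 marked and 0.871 ± 0.702 in day 60 unmarked cells (SD, n = 3 each). It was higher in day 270 marked than in day 60 unmarked cells by 2.87 ± 0.60 (limma, adjusted p = 0.0192). The background of that comparison was 1.54% of all genes called, 0.795% higher and 0.748% lower. For marked minus unmarked, both days averaged, the other fatty acid synthesis genes had a median of 0.01 (10 positive, 9 negative). The median was -0.31 for the other cholesterol synthesis genes and -0.17 for those of sterol regulation and transport. It was 0.04 for phospholipid synthesis and -0.07 for fatty acid oxidation, beside -0.18 over all genes.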

How the data were processed

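RNA from sorted bone marrow plasma cells was isolated with RNeasy Micro kits and made into TruSeq RNA libraries, per the labels' protocols. The submitters' processing notes name the build GRCm38 and limma. No label or header read here names the aligner, the counter or the strand setting. The authors deposited CPM values of 14219 genes in 12 libraries, read counts of 230 genes, and log2 fold changes, p-values and FDR values of their own comparisons. The 131943 CPM values that were above 0 and came to under 1000 reads were all within 0.05 of a whole number of reads, and the recovered reads equalled 100% of the deposited counts.

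limma 3.58.1 (R 4.3.3) was fitted to log2(CPM + 0.5) of all 12 libraries, with 1 coefficient per group and a trended prior, after edgeR's filterByExpr (minimum count 10, 12704 genes kept). P-values were two-sided and Benjamini-Hochberg adjusted over all genes, with a call at 0.05. Alternatives were TMM scaling, limma-voom, edgeR 4.0.16 and DESeq2 1.42.0 on the recovered reads, other pseudocounts and filters, only the libraries compared, a replicate block and libraries left out. For the averaged comparisons and the interaction, using only the libraries compared keeps all 4 groups. That setting then repeats the main fit, and it is still counted among the alternatives. The members and lists were chosen with earlier results of these data known. Values in every library are given for called genes, the 4 with the largest mean CPM and the 2 with the smallest unadjusted p in each direction of the single-day and single-population comparisons. Fads1, the remaining desaturase, was added after its values were seen. Per-kilobase levels used exon lengths of GENCODE M21, which held 38 of 38 members. On simulated data for the day 60 comparison (12704 genes), limma recovered 11.7% of 103 genes changed 2-fold and 60.8% of 97 genes changed 4-fold, with 4 false calls.

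Same-numbered libraries of a day share a specimen number in the labels, which pairs them. Residuals correlated with a median of 0.0556 within 6 pairs and -0.0194 in 12 other pairs of a day.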

Additional observations from a re-analysis of the deposited data

Results flagged for a closer look

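Fdps and Pcyt1a were singled out because their marked minus unmarked difference had one sign in all 3 specimen pairs of day 270 and the other sign in all 3 of day 60. The share of all genes with that pattern was not counted, so these 2 cannot be set against a background. Marked over unmarked Fdps was 0.713, 0 and 0 in the pairs of day 270 and 2.76, 1.46 and 2.83 in those of day 60, on few reads, and the difference between the days was -1.7 ± 1.05 on the log2 scale (limma, adjusted p = 1). Marked over unmarked Pcyt1a was 0.785, 0.725 and 0.939 in the pairs of day 270 and 1.11, 1.08 and 1.3 in those of day 60, and the difference between the days was -0.51 ± 0.3 (limma, adjusted p = 1).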

How the results depend on the processing

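The 21 gene results, each followed through 22 or 23 alternative settings, gave 481 combinations of result and setting. Of these, 423 kept their side of the threshold, 48 lost a call, 10 gained a call and 0 changed direction. Counts of called genes were 0 in all 23 settings for unmarked cells between days and for the interaction. For day 60 (0 called) the count was 2 with DESeq2 (Fasn and Scd1), 1 with the replicate block (Scd1) and 1 without day 270 marked libraries 2 and 3, and 0 to 0 with each library left out in turn. For day 270 (0 called) it was 1 with DESeq2 (Mvk), 1 with a pseudocount of 2 (Fads2), and 0 to 2 with a library left out, 2 (Fads2 and Mvk) without day 270 marked library 1. For marking averaged over days (3 called) it was 1 with edgeR (Fasn), 1 with a pseudocount of 0.1 (Scd1), 1 without day 270 marked libraries 2 and 3 (Scd2, with Scd1, Fads2 and Fasn lost), 3 with limma-voom (Fasn, Scd1 and Scd2), 4 with DESeq2 (Fads2, Fasn and Scd1 lower, Elovl5 higher), and 0 to 4 with a library left out. For marked cells between days (1 called) it was 0 with limma-voom, 0 with edgeR, 2 with DESeq2 (Scd1 and Scd2), 0 with a pseudocount of 0.1, 0 with only the libraries compared, 0 without day 270 marked libraries 2 and 3, and 0 to 2 with a library left out. For day averaged over populations (2 called) it was 3 with DESeq2 and 3 with a pseudocount of 2 (Pcyt1a added in both), 1 without day 270 marked libraries 2 and 3 (Scd1), and 1 to 4 with a library left out. For day 270 marked against day 60 unmarked (0 called) it was 1 with DESeq2, and 0 to 1 with a library left out, 1 (Elovl5) without day 270 marked library 2. The cause was not tested. The replicate block pairs the specimens in comparisons within a day, and libraries of the same number in comparisons between days. Beside the Scd1 call gained at day 60, it ended the Fasn call for marking (limma, adjusted p = 0.0556). It changed no other call among the gene results. A library without reads was found for 7 genes: Fads2, Fdps, Idi1, Elovl6, Hmgcs1, Mvd and Pmvk. Fdps, Idi1 and Elovl6 had 158, 125 and 84 reads over all libraries. In day 270 marked libraries 1, 2 and 3, Hmgcs1 had 250, 0 and 187 reads and Mvd 122, 0 and 166. There Pmvk had 99, 27 and 0 reads and Fads2 71, 11 and 0. The totals of these libraries were 15943543, 7449468 and 9241983 reads. Whether depth accounts for the counts of 0 was not tested, and intervals cover counting error only.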

Other observations

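Of the 12 macrophage markers, Axl was called higher at day 270 with both populations averaged, at 127 ± 33.7 CPM in day 270 marked, 67.5 ± 20.3 in day 270 unmarked, 31.9 ± 6.9 in day 60 marked and 23.0 ± 17.9 in day 60 unmarked cells (SD, n = 3 each).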
